A study of Mus musculus with 6 samples.

Results

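The Slco genes encode organic anion transporting polypeptides (OATPs), membrane carriers that bring bile acids, bilirubin conjugates, steroid sulphates, thyroid hormones, prostaglandins and many drugs into cells. In hepatocytes they sit mainly on the sinusoidal side, facing the blood, and the first step of hepatic clearance of many compounds runs through them. In the adult mouse liver Slco1a1 is known as a male-predominant transcript and Slco1a4 as a female-predominant one, and growth hormone is known to shape that difference.

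Expression of 5 members of this family, Slco1a1, Slco1a4, Slco1b2, Slco2a1 and Slco2b1, was examined in livers of mice lacking p14. They were among 15 Slco genes and 18193 genes in all that the platform annotation paired with probe sets of a single symbol. The 5 genes had 15 of the 34945 such probe sets, and 12 of the 15 passed a filter on dim signals, which asked for 3 or more of the 6 arrays at a log2 value of 4 or above. The genes were chosen by name, and within each gene the probe set was selected on its 6-array mean, the brightest being used and the others given beside it. The family was picked for study with the large difference of Slco1a1 already known, so the values of Slco1a1 are a description and no test is read from them. All 5 genes passed the filter, Slco1a1 through its KO arrays and WT 3 only.

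The study profiled the livers of 3 male mice whose p14 gene was knocked out conditionally in the liver (KO 1 to KO 3) and 3 male control mice labelled p14 WT (WT 1 to WT 3), all 6 weeks old and C57BL/6. Each mouse had its own Affymetrix array and counts as a biological replicate per the labels. What drives the conditional deletion was not given in the sources used here. p14 is the protein of Lamtor2, a late endosomal adaptor of the Ragulator complex.

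Lamtor2 averaged 10.13 ± 0.06 in KO livers, against 11.32 ± 0.03 in WT livers (log2, SD, n = 3 each), and was lower on every KO array. All 11 hepatocyte markers with a probe set were measured, with 0 called in limma, against 0.170% of all genes. Of the 11, 1 had an unadjusted p under 0.05 in limma, against 14.5% of all genes. Their median difference was -0.06, or 0.0096 when each array was centred on its median. G6pc, the glucose-6-phosphatase of gluconeogenesis, differed by 1.24 (0.78 without WT 1), Tat, a tyrosine aminotransferase, by 0.24 and Hnf4a, a hepatocyte transcription factor, by -0.20. G6pc and Pck1, at 0.24, were higher without overlap, and Hnf4a and Apoa2, at -0.07, lower without overlap (Pck1 and Apoa2 chosen after their values were seen). Groups did not overlap, in either direction, for 20.5% of all genes. The Y-linked transcripts Eif2s3y, Kdm5d and Uty were measured on all 6 arrays, between 7.31 and 9.05, and the 3 probe sets of Xist, the transcript of the inactive X, lay at 2.185 or below, as the male labels have it. KO 3 stood apart from the other KO arrays on the first principal component, at -2.58 against -30.39 and -22.27, while WT arrays lay between 14.19 and 21.55. WT 2 carried skeletal muscle transcripts: Mylpf, the 1 muscle marker of 12 past the filter, was at 12.41 there and at 3.92 to 4.15 on the other arrays. Signal of the 18S rRNA control probe sets was 0.803 higher in the KO group (log2), and the 3 prime minus 5 prime measure of pyruvate carboxylase, a measure of RNA integrity, differed by -0.95. Their part in the Slco values was not tested.

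The sequences before the start sites of Slco1a1, Slco1a4 and Slco1b2 are shown because these genes are close neighbours on chromosome 6 and their KO minus WT differences ran from -0.15 to 8.06. In the RefSeq gene table of assembly GRCm38.p6 the protein-coding genes run in the order Slco1c1, Slco1b2, Gm5724, Slco1a4, Slco1a1, Gm6614, Slco1a6 and Slco1a5. Slco2b1 is on chromosome 7 and Slco2a1 on chromosome 9. Each sequence holds the 250 bases before the annotated start, 5′ to 3′ on the gene's strand, from RefSeq (GRCm38.p6). They are chr6:141946963-141947212 on the minus strand for Slco1a1, chr6:141856221-141856470 on the minus strand for Slco1a4 and chr6:141629268-141629517 on the plus strand for Slco1b2. Capitals mark matches to 1 of 2 motifs, searched on both strands: TTCNNNGAA, the palindrome bound by STAT5, a transcription factor of growth hormone signalling, and GTTAAT, part of the site of the hepatocyte factor HNF1. The motifs do not overlap each other here.
Slco1a1: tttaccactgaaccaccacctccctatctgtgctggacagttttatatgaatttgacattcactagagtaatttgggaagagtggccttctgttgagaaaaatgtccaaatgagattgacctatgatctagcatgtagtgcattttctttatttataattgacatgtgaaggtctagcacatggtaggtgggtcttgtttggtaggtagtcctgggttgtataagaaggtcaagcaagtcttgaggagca
Slco1a4: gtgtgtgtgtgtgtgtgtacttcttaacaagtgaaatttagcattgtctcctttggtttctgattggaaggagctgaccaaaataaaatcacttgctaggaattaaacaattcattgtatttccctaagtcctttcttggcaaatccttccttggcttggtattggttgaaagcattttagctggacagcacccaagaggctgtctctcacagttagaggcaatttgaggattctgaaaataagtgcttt
Slco1b2: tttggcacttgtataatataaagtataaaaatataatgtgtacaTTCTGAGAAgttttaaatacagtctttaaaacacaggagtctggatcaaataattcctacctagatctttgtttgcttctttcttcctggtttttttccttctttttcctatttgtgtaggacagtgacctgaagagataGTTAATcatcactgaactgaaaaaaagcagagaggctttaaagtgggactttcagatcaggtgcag

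Slco1b2 held 1 match to each motif, beginning 206 and 66 bases before its start site. Slco1a1 and Slco1a4 held 0 matches in these windows, which says only that these letters are not in them. In windows not printed here, 1 of 3 of Slco2b1 held TTCNNNGAA, beginning 133 bases before its start site. The window of Slco2a1 held 0 matches. Of all 32851 promoter windows of the same length, 7.02% held TTCNNNGAA and 6.43% held GTTAAT.

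Slco1a1, a carrier of bile acids and steroid conjugates, was bright on every KO array and below a log2 value of 4 on 2 of 3 WT arrays. It measured 12.32, 11.65 and 12.33 in KO livers and 2.29, 2.29 and 7.53 in WT livers (log2). WT 3 was the 1 WT array above a log2 value of 4, and even so it lay 4.11 below the lowest KO array, a 17.3-fold gap. The mean was 12.10 ± 0.39 for KO livers, against 4.04 ± 3.03 for WT livers (SD, n = 3 each), and the WT arrays spread over 5.25 while the KO arrays spread over 0.684. The KO minus WT difference was 8.06, or 267-fold. Because 2 WT arrays lay near the lowest values of the table, the size of that fold depends on how dim values are treated: with all values floored at 4 the difference was 6.92, or 121-fold.

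A second probe set of Slco1a1, which shares the gene and may share target sequence with the first, measured 11.39, 10.53 and 11.40 in KO and 2.62, 2.64 and 5.55 in WT livers. Its difference was 7.51, and the same WT mouse stood above the other two. Among the 10009 genes past the filter Slco1a1 had the largest absolute difference, with the next at 5.49. Without WT 3 its difference was 9.81. In the limma fit 17 of the 10009 genes were called at an adjusted p under 0.05, or 0.170%, and 0 of the 4 Slco genes other than Slco1a1 were among them. At an unadjusted p under 0.05 the same fit held 0 of these 4, against 1447 of all genes, or 14.5%.

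**Figure D1:**
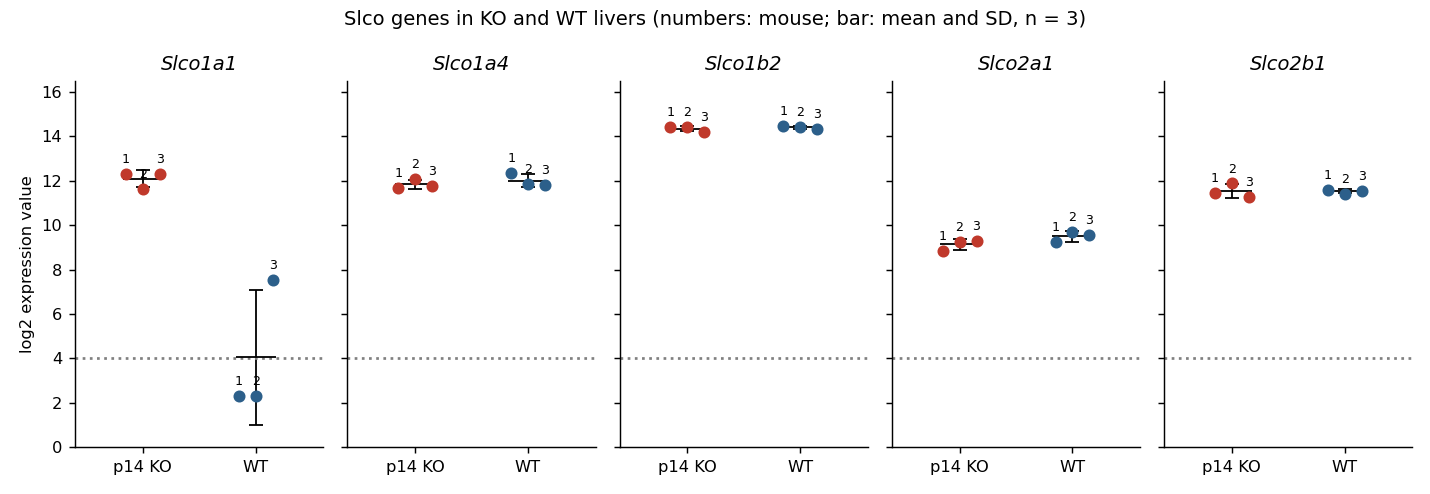
Log2 expression of the 5 Slco genes (brightest probe set) in KO livers (red, left) and WT livers (blue, right), 1 numbered point per mouse, with the mean and SD of 3 mice as black bars. The dotted line marks a log2 value of 4. Slco1a1 is at 11.65 to 12.33 in KO and at 2.29, 2.29 and 7.53 in WT, and the groups of the other 4 genes overlap.

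Slco1a4, a carrier of bile acids, cardiac glycosides and steroid conjugates and the neighbour of Slco1a1, overlapped between the groups. It measured 11.69, 12.08 and 11.78 in KO and 12.34, 11.86 and 11.81 in WT livers. WT 1 was the highest array and KO 1 the lowest. The difference was -0.15 with a 95% interval of -0.60 to 0.29, and limma gave an adjusted p of 0.693. It turned to 0.013 without WT 1. Slco1a4 had a single probe set.

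Slco1b2, the mouse carrier closest to the human hepatic OATP1B proteins and a main route of bilirubin and drug uptake, gave an answer that depended on the probe set. The brightest measured 14.44, 14.42 and 14.21 in KO and 14.46, 14.45 and 14.34 in WT livers. These groups overlapped, and KO 3 was the lowest array. The difference was -0.06 (95% interval -0.28 to 0.16), and the limma adjusted p was 0.766. On the linear scale that interval ran from 0.826 to 1.12 times the WT level. Its sign turned when each array was centred on its median, to 0.00885, and without KO 3, to 0.017.

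The other 3 probe sets of Slco1b2 past the filter all had higher means in KO. In the set 1427826_a_at the KO arrays read 13.22, 13.08 and 13.41 and the WT arrays 12.06, 13.01 and 12.07. Those groups did not overlap, although WT 2 came close to the lowest KO array. The difference was 0.86 (95% interval 0.16 to 1.56), and it was not called in limma when every probe set was tested (adjusted p = 0.303). In 1452494_s_at, whose suffix marks a set that can match more than 1 transcript, the KO arrays read 14.43, 14.38 and 14.47 and the WT arrays 14.18, 14.34 and 13.96. Again the groups did not overlap, with a difference of 0.27 and a limma adjusted p of 0.347. The dim set 1452569_at differed by 0.29 with overlapping groups, and 1427825_at stayed below 4 on all arrays. For scale, groups that do not overlap and are higher in KO were found for 8.67% of the 17316 probe sets tested, and 0.0866% of them were called. Averaged over its probe sets Slco1b2 differed by 0.28 in place of -0.06 (limma adjusted p = 0.334). Which transcripts each probe set reads was not analysed here.

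**Figure D2:**
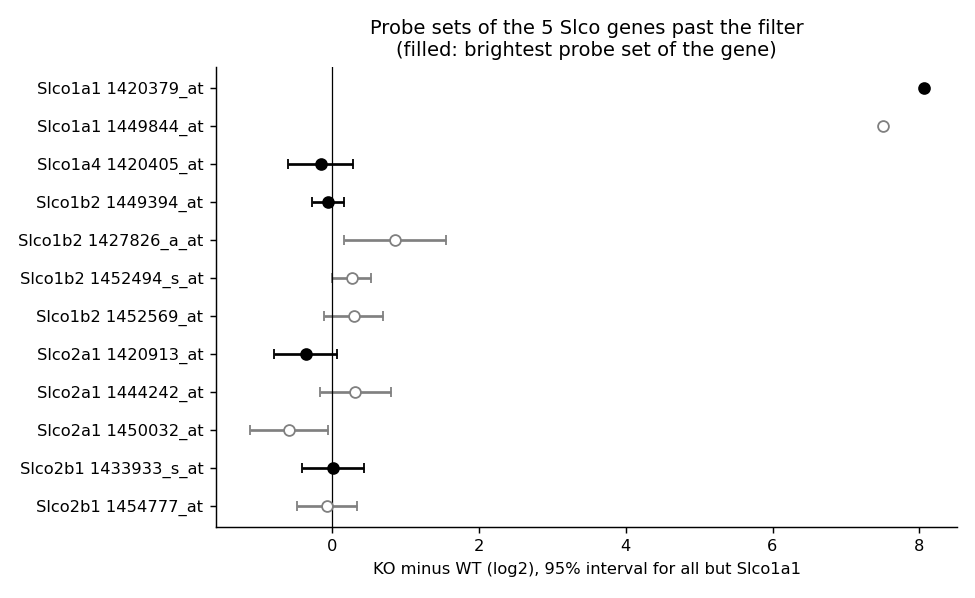
KO minus WT difference (log2) of the 12 probe sets of the 5 Slco genes past the filter, with 95% intervals from the limma fit of every probe set for all genes but Slco1a1, whose values are shown as a description. Filled points are each gene's brightest probe set. Both Slco1a1 sets lie above 7, the 4 Slco1b2 sets spread from -0.06 to 0.86, and 3 Slco2a1 sets from -0.59 to 0.32.

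Slco2a1, the prostaglandin transporter, was lower on average in KO livers but did not pass the test. It measured 8.85, 9.26 and 9.30 in KO and 9.24, 9.70 and 9.55 in WT livers. WT 1 fell among the KO arrays, so the groups overlapped. The difference was -0.36 (95% interval -0.79 to 0.07), which is 0.779 of the WT level, and the limma adjusted p was 0.393. It was -0.22 without KO 1, the lowest array.

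A further set of Slco2a1, 1450032_at, read 6.50, 7.17 and 7.28 in KO and 7.48, 7.55 and 7.68 in WT livers. Here every KO array lay below every WT array, as was so for 11.7% of all probe sets tested, and the difference was -0.59 (limma adjusted p = 0.326). A dimmer set, 1444242_at, went the other way at 0.32, with overlapping groups, and 1420914_at reached 4 on 1 array only. Endothelial cells are a known site of Slco2a1. Of 20 liver endothelial markers 19 were measured, 16 were lower in KO with a median difference of -0.44, and 11 were lower without overlap, as were 1400 of all 10009 genes tested. Cd34, an endothelial marker, lay below 4 on all arrays. Lyve1, the hyaluronan receptor of sinusoidal endothelium, was the 1 endothelial marker called (limma adjusted p = 0.0353), a call it kept without KO 3 and lost without any 1 of the other 5 arrays (limma adjusted p = 0.129 to 0.202). Egfl7 and Cdh5 differed by -0.57 and -0.68 without a call. The endothelial list mean was 7.99, 8.25 and 8.37 on the KO arrays and 8.60, 8.58 and 8.69 on the WT arrays. KO 1 was the lowest array for the list and for both of the brighter Slco2a1 sets. The part of these markers in the Slco2a1 values was not tested, and in whole liver fewer cells of a type and less RNA per cell cannot be told apart.

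**Figure D3:**
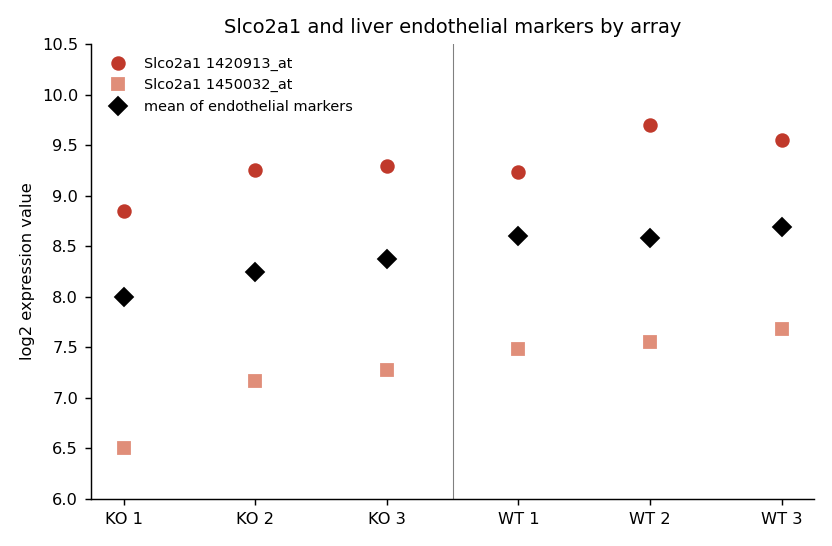
Log2 values of the 2 brighter Slco2a1 probe sets (circles and squares) and the mean of the 19 measured liver endothelial markers (diamonds) on each array, KO left and WT right. KO 1 is the lowest array in all 3, and the list mean is 7.99 to 8.37 in KO against 8.58 to 8.69 in WT.

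Markers of other non-parenchymal cells had lower KO means as well. All 17 measured macrophage markers of 18 listed had a lower mean, with a median difference of -0.86 and 0 called, although 11 had an unadjusted p under 0.05 in limma, as had 14.5% of all genes. Macrophage list means were 8.36, 8.71 and 9.59 in KO and 9.89, 9.96 and 9.81 in WT, and Itgam lay below the filter. Lyz2, Marco and Cd5l differed by -1.13, -2.74 and -1.01, and without KO 3 Lyz2 and Cd5l were called (limma adjusted p = 0.0373 and 0.0253), as were 140 of all 10009 genes, or 1.40%. The macrophage median was -1.19 without KO 3 and -0.64 without KO 1. Of 13 measured stellate cell markers 12 were lower, with a median of -0.37 (-0.51 to -0.26 with 1 array left out). In limma 0 were called and 5 had an unadjusted p under 0.05, against 14.5% of all genes. Sparc differed by -0.54, Ecm1 by -0.36 and Hgf by -0.37, and the 1 higher marker, Lrat, by 0.23. Stellate list means were 8.90, 9.16 and 9.31 in KO and 9.32, 9.80 and 9.40 in WT. The highest was WT 2, the array with muscle transcripts, and without WT 2 the median was -0.27. The part of the muscle transcripts in these values was not tested. Only Epcam, at 0.08, was measured among cholangiocyte markers.

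Slco2b1, a carrier of steroid sulphates and drugs, had nearly equal means in the 2 groups. Its brightest set, 1433933_s_at, has the suffix of sets that can match more than 1 transcript. This set measured 11.45, 11.89 and 11.27 in KO and 11.59, 11.42 and 11.56 in WT livers. Both the highest and the lowest array were KO mice, and all WT arrays lay between them. The difference was 0.013 (95% interval -0.40 to 0.43, limma adjusted p = 0.979), and on the linear scale that interval ran from 0.757 to 1.35 times the WT level. A second set, 1454777_at, differed by -0.07 with overlapping groups, and 1458171_at was below 4 on every array.

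**Figure D4:**
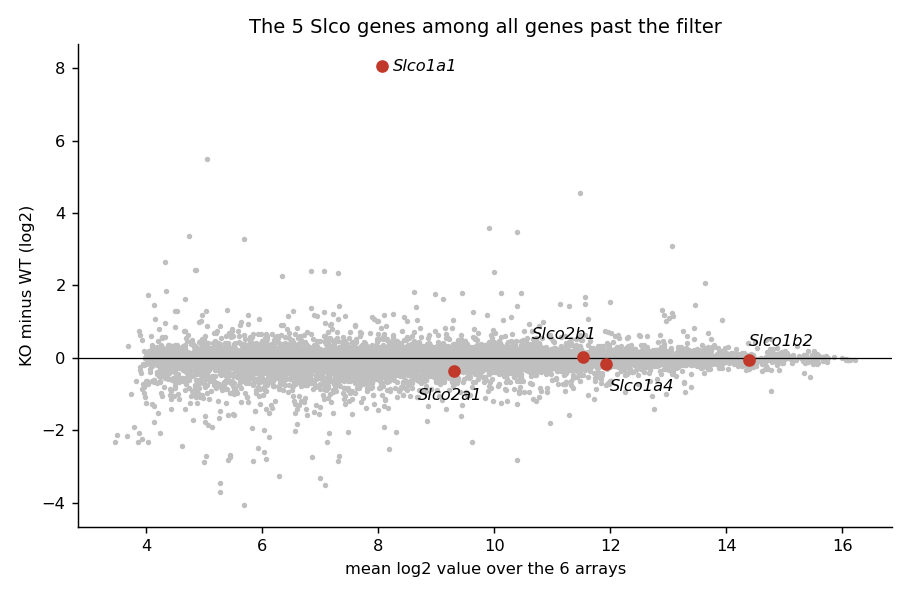
KO minus WT difference (log2) against the mean log2 value over the 6 arrays for the 10009 genes past the filter (grey), with the 5 Slco genes in red. Slco1a1, at 8.06, is above all other points, and the other 4 lie between -0.36 and 0.013.

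By the brightest probe set of each of the 5 genes, Slco1a1 alone had groups that did not overlap. Further sets of Slco1b2 and Slco2a1, given above, did not overlap either. Such a pattern was found for 20.5% of all genes tested, 6.54% being higher in KO. Nothing is read from that count for a gene chosen for its difference. The other 10 Slco genes on the array were largely unmeasured. Slco3a1 alone passed the filter, at 4.18, 4.18 and 4.43 in KO and 4.18, 4.30 and 4.33 in WT, a difference of -0.0075. The neighbours of Slco1a1 on chromosome 6, Slco1a5, Slco1a6 and Slco1c1, stayed between 2.18 and 2.19 on all 6 arrays, at the bottom of the scale.

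Slco1a1 was then set beside other sex-biased liver transcripts. Of 22 male-biased genes listed, leaving out Slco1a1 itself, 12 were measured, and 11 were higher in KO with a median difference of 0.64, against -0.04 over all genes. Higher without overlap were 4 of them, as were 6.54% of all genes. None of the 12 was called in limma, and 5 had an unadjusted p under 0.05, against 14.5% of all genes. Cyp4a12a passed the filter through its KO arrays alone, and without it 10 of 11 were higher, 3 did not overlap, 4 had an unadjusted p under 0.05 and the median was 0.58. The male-biased median over all 12 was 0.47 without KO 1 and 0.95 without KO 3. Male-biased list means were 12.74, 11.985 and 11.39 in KO and 10.51, 10.86 and 11.37 in WT, so KO 3 and WT 3 were nearly equal. Cyp4a12a, a fatty acid hydroxylase, read 11.29, 7.63 and 4.47 in KO and 2.18, 2.18 and 2.56 in WT livers. Its KO mice spread widely, where those of Slco1a1 stayed within 0.684 of each other. Nudt7, a peroxisomal coenzyme A hydrolase, read 14.61, 14.33 and 14.45 in KO and 12.75, 13.53 and 13.93 in WT. As with Slco1a1, WT 3 was its highest WT array. Cyp2u1, another cytochrome P450, differed by 0.71 (limma adjusted p = 0.204).

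Mup3, a major urinary protein chosen after its values were seen, shared the rank of WT 3 but not the separation of the groups. It read 15.46, 15.14 and 13.43 in KO and 11.26, 12.24 and 14.29 in WT, so WT 3 exceeded KO 3. Probes of the Mup genes can share targets.

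Of 24 female-biased genes listed 16 were measured, and 12 had a lower KO mean, as had 5848 of all 10009 genes. The median difference of the 16 was -0.44. Lower without overlap were 4 of them, as were 1400 of all 10009 genes tested. None of the 16 was called in limma, and 4 had an unadjusted p under 0.05, against 14.5% of all genes. Of these 4, Cyp2b10, a cytochrome P450 chosen after its values were seen, was higher in KO without overlap, by 0.55. Sult3a1 of the same list, also chosen after its values were seen, was higher by 2.25 with overlapping groups. It read 8.79, 8.51 and 5.09 in KO and 2.18, 4.71 and 8.74 in WT. Prom1, a membrane glycoprotein, differed by -2.52, Sult1e1, the oestrogen sulphotransferase, by -2.69 and Cyp2c39 by -0.77. Their groups did not overlap, whereas those of Slco1a4, also known as female-predominant, did. The female-biased median was -0.17 without KO 1, -0.22 without WT 1 and -0.65 without KO 2, and Prom1 was among the 140 genes called without KO 3 (limma adjusted p = 0.0296).

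**Figure D5:**
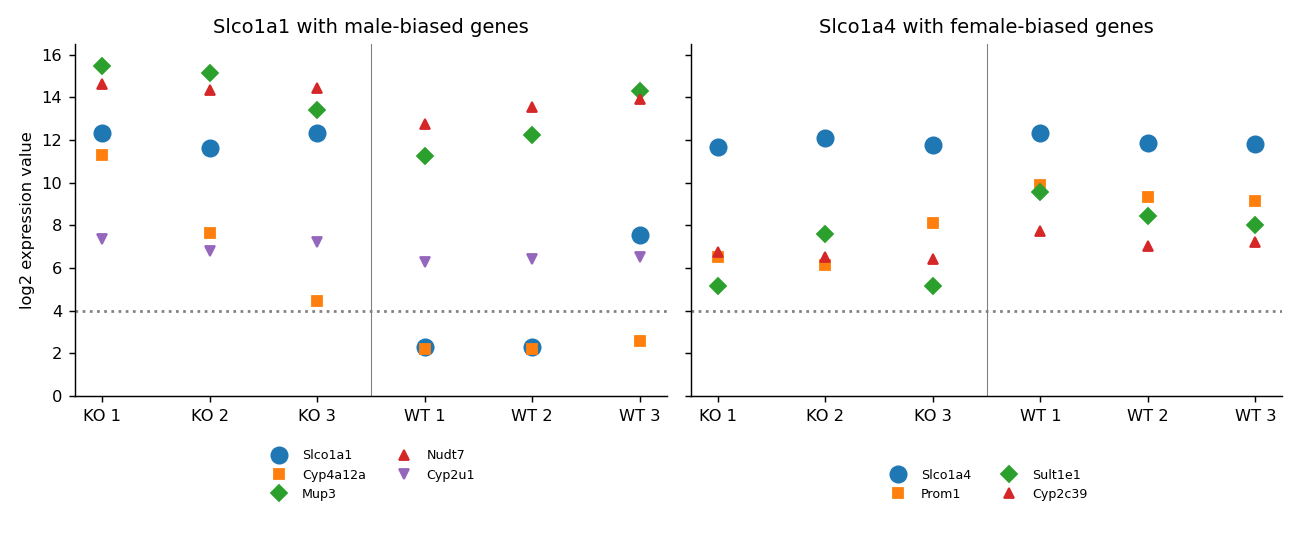
Log2 values on each array, KO left and WT right, of Slco1a1 with 4 male-biased genes (left panel) and Slco1a4 with 3 female-biased genes (right panel). The dotted line marks a log2 value of 4. WT 3 is the highest WT array for Slco1a1, at 7.53, and for Mup3, at 14.29, and Slco1a4 stays between 11.69 and 12.34 on all arrays.

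Genes of growth hormone signalling gave 0 calls among 11 measured (3 at an unadjusted p under 0.05 in limma, against 14.5% of all genes). Their median was -0.09, or -0.13 to -0.02 with 1 array left out. It turned to 0.09 when each gene's probe sets were averaged, with 6 higher and 5 lower. Ghr, the growth hormone receptor, read 13.999, 14.04 and 13.92 in KO and 13.63, 13.70 and 13.82 in WT. The difference was 0.27 with groups that did not overlap (limma adjusted p = 0.258). Its other probe sets differed by 0.31 and 0.81, also without overlap. Stat5b, which carries the signal to the nucleus, differed by -0.26 and also did not overlap. Bcl6, a repressor that competes with STAT5, read 10.55, 10.79 and 9.67 in KO and 9.26, 9.35 and 7.02 in WT, a difference of 1.79 (limma adjusted p = 0.338), or 1.03 without WT 3. WT 3, the WT array with Slco1a1 signal, was the lowest array for Bcl6. Of the 11 genes 4 were higher and 7 lower, and of all 10009 genes 5848 were lower. Without overlap 2 of the 11 were higher and 3 lower, against 655 and 1400 of all 10009 genes. Cish, Socs2 and Igf1, of the same list, are given after their values were seen. Cish differed by -1.83 without overlap and Socs2 by -0.86 with overlap, and both were highest on WT 3. Igf1 differed by 0.51 with overlapping groups, and its other probe sets by 0.79 to 0.94 without overlap.

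Among 16 measured regulators of Slco genes 0 were called (3 at an unadjusted p under 0.05 in limma, against 14.5% of all genes). Lower were 11 of them, as were 5848 of all 10009 genes. Their median was -0.11, or -0.14 to -0.03 with 1 array left out. Without overlap 5 were lower and 1 was higher, against 1400 and 655 of all 10009 genes. With each array centred on its median 7 were higher and 9 lower. Cebpa, Foxa3 and Foxa2, liver transcription factors, differed by -0.32, -0.62 and -0.67 (Foxa2 by -0.81 to -0.42 with 1 array left out), each lower on every KO array than on any WT array. Their limma adjusted p lay between 0.283 and 0.318.

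Carriers of other families showed no common direction. The other hepatic uptake carriers gave 10 measured genes, 5 higher and 5 lower, with a median of 0.0036 (0.0035 to 0.03 with 1 array left out) and 0 called (2 at an unadjusted p under 0.05 in limma, against 14.5% of all genes). Slc22a7, an organic anion carrier, differed by 0.88 with overlapping groups (0.56 without KO 2), Slc22a30 by 0.71 (0.43 without WT 1) and Slc22a23 by -0.31. Efflux carriers gave 13 measured genes, 6 higher and 7 lower, with a median of -0.05 and 0 called (4 at an unadjusted p under 0.05 in limma, against 14.5% of all genes). Abcb11, the bile salt export pump, read 13.34, 13.38 and 13.59 in KO and 13.77, 13.63 and 13.73 in WT (difference -0.28, limma adjusted p = 0.299). Abcg2, a canalicular export pump of xenobiotics, went the other way at 0.45 without overlap. Abcc4, a basolateral exporter of bile acids and prostaglandins, differed by -1.21 with overlapping groups. The efflux median changed sign without KO 1, to 0.10, without WT 1, to 0.12, and with each array centred on its median, to 0.017.

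Beside Slco2a1, other genes of prostaglandin handling had a median of 0.04 over 9 measured genes (-0.02 to 0.06 with 1 array left out), with 0 called (2 at an unadjusted p under 0.05 in limma, against 14.5% of all genes). Ptgr1, a prostaglandin reductase, differed by -0.84 (-1.12 to -0.51 with 1 array left out). Ptgds, a prostaglandin D synthase, differed by 0.55 with overlapping groups (0.27 to 1.12 with 1 array left out). Hpgd, which breaks down the prostaglandins that Slco2a1 takes up, differed by 0.06 and was chosen after its values were seen.

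The transcripts whose log2 values followed each Slco gene most closely over the 6 arrays are given by Pearson's r, as a description over 6 arrays that include the difference between the groups. For Slco1a1 they were Pitpna, Ccnq, Hnrnpr, Cnmd and Mtarc1, with r from 0.977 to 0.981. Cnmd had the widest range of these, at 8.24, 8.31 and 7.60 in KO and 5.13, 5.20 and 6.61 in WT, and WT 3 was again its highest WT array. For Slco1a4 they were Stard9, Rbm47, Fkbp4, Nudt19 and Pde6c (r from 0.975 to 0.990). For Slco1b2 they were Ppargc1a, Pros1, Mapkapk5, Dhrs11 and Zbtb16 (r from 0.962 to 0.972), of which Zbtb16 read 5.63 on KO 3 and 8.46 or more on every other array. Slco2a1 was followed by Dusp10, Pip4k2a, Rnpep, Tanc1 and Cd93 (r from 0.986 to 0.995), the last a surface protein of endothelial cells. Slco2b1 was followed by Cyp2d40, Atp6v1h, Spidr, Il6st and Trim11 (r from 0.976 to 0.985). Nothing about shared function or control is read from these values.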

How the data were processed

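Per the submitters' processing notes, the authors computed the deposited log2 values of each probe set in GCRMA 2.16.0 (R 2.9.1). This method subtracts a sequence-based background, normalises across arrays and summarises probes, and 28.9% of values lay at the lowest value, 2.185. The log2 scale was inferred from the values. No detection calls or scan dates were used here, and the number of arrays limits precision.

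Of 45101 probe sets 34945 had 1 gene symbol in the platform annotation, 932 several and 9160 none listed, and 64 were controls. Entrez identifiers of 34741 were found in the RefSeq table. The brightest probe set over all arrays stood for each of 18193 genes, and 10009 passed the filter (3 or more arrays at 4 or above). The 2 groups were compared by limma 3.58.1 in R 4.3.3 (functions lmFit and eBayes, two-sided test, no covariates, Benjamini-Hochberg adjustment over all genes kept, threshold 0.05). A difference is the KO mean less the WT mean in log2 units, intervals are 95%, and further probe sets were tested in a fit of 17316 probe sets.

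On simulated data for KO against WT over 10009 genes, the fit recovered 38% of 50 genes changed 1.5-fold, 80% of 50 changed 2-fold, 92% of 50 changed 4-fold and 100% of 50 changed 8-fold, and made 10 false calls. The simulated noise was normal and independent for each gene and array, without shifts shared by many genes of 1 array. These shares may therefore not hold for the real arrays. The 15 gene lists and the 5 members were chosen with earlier results of these data known, and the motifs after the values were seen. From each list the called genes were named, filled up to 3 by the smallest p. For likeness the 5 genes with the highest r were named, without predicted genes and clones. Figures were drawn with matplotlib 3.10.9. Alternatives covered the filter, the treatment of dim values, normalisation, the choice of probe set, a replicate block, array weights, the variance model and arrays left out.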

Additional observations from a re-analysis of the deposited data

How the results depend on the processing

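Slco1a1 was higher in KO under all 19 alternatives, at 6.92 to 9.81, and Slco2a1 lower under all 19, at -0.49 to -0.19. Changes of the filter or the variance model, the replicate block and the fit of every probe set leave a difference as it is. Those settings could not have changed its sign. The number of Slco genes called was 0 with all arrays and between 0 and 1 with 1 array left out, a count from which nothing is read because the family was picked on Slco1a1. The number of all genes called, 17 with all arrays, lay between 1 and 140 with 1 array left out, the 140 being without KO 3 and the others 6 or fewer, was 3 with no filter, 10 with the filter at a log2 value of 6, 3 with an ordinary two-sample test and 3 when both KO 3 and WT 2 were removed. It was 0 with the replicate number as a block in limma, where 1235 genes had an unadjusted p under 0.05. The numbers only name the mice: deviations of same-numbered arrays correlated at -0.09, -0.08 and -0.14. With each array centred on its median the list medians of growth hormone signalling, Slco regulators, prostaglandin handling and uptake carriers were -0.03, -0.04, 0.10 and 0.07. The cause of these shifts was not tested.

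Differences close to 0 changed sign. Slco1b2 was 0.00885 with median centring, 0.28 with the mean of its probe sets, 0.032 without KO 3 and WT 2, and -0.10 to 0.017 with 1 array left out. Slco2b1 was -0.0050 with the mean of its probe sets and -0.16 to 0.15 with 1 array left out, and Slco1a4 -0.27 to 0.013. Slco3a1 was 0.059 with median centring, 0.041 with quantile normalisation and -0.089 to 0.035 with 1 array left out. Uty was 0.023 with the mean of its probe sets, Eif2s3y -0.00328 with array weights and -0.066 to 0.038 with 1 array left out, and Epcam -0.032 without KO 3 and WT 2 and -0.053 to 0.18 with 1 array left out. Of 811 values of 43 named genes under the alternatives, 778 kept their direction and their side of the threshold, 20 changed sign, 4 gained a call and 9, all of Lyve1, lost one. Under the settings that leave a difference as it is, only the call could change. Arrays near the lowest values limit the size of the Slco1a1 difference.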
